A study of Homo sapiens with 12 samples.

Results

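The homeobox genes that lie outside the HOX clusters and outside the TALE class were followed in HEK293 cells with and without extra RBMX. The 44 genes were taken by symbol from the 25268 gene symbols of the expression table: 16 genes of the ANTP class, 7 PRD, 8 LIM, 2 POU, 3 CUT, 3 SINE and 4 ZF class genes, and 1 kinase gene, HIPK1, whose product binds homeodomain proteins. HEK293, an established human embryonic kidney line, was transiently transfected with 2 µg of a plasmid encoding His- and HA-tagged RBMX, an RNA-binding protein, in a pCMV6 vector, or with the mock empty vector, and the mock-transfected cells, otherwise wild type, were the control. For each vector there were 3 replicates of a total and a polysomal RNA library, so that 12 libraries fell into 4 groups of 3. Cycloheximide was added to every culture before lysis, nuclei were spun out, and the lysate was separated on a sucrose gradient, in which mRNAs carrying several ribosomes sink into the polysomal fractions. Total RNA was a pool taken from every fraction of the gradient. The labels also mention a pair of dishes seeded for the RNA preparations, so it is uncertain that both libraries of one number came from one culture, although they are called a culture here. Transient transfection can leave some cells without plasmid, so each value is an average over cells that did and did not take it up.

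A homeobox encodes the homeodomain, a helical DNA-binding fold, and most of its carriers are transcription factors that set position and cell fate in the embryo. The classes differ in what accompanies the fold: paired domains in part of the PRD class, LIM domains, POU-specific domains, cut repeats, an extra protein-binding domain in the SINE class or zinc fingers. In the kidney lineage PAX2, PAX8, SIX2, LHX1, EMX2 and LMX1B are known for roles in nephron formation, while many other members are best known from brain, limb or craniofacial development.

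To show what the genes have in common at the sequence level, the coding sequences were searched for the third-helix signature of the homeodomain, the codons for tryptophan, phenylalanine, any residue, asparagine, any residue and arginine, in frame on the coding strand. The signature was present in 35 of the 44 genes and in 222 of 19590 protein-coding genes (1.13%). The stretches of some members on which the results turn, or which were among the most abundant, are given 5′ to 3′ from GENCODE release 29 on GRCh38, with the codons of the signature in capitals.
PITX1: cgggtcTGGTTCAAGAACCGGCGAgccaag
POU3F2: agagttTGGTTTTGTAACAGGAGAcagaaa
CUX1: atcaacTGGTTCCACAACTACAGGtctcgg
EN2: aagattTGGTTCCAGAACAAGCGCgccaag
HESX1: cagattTGGTTTCAAAATCGGCGTgcaaaa
ISL2: cgcgtcTGGTTCCAGAACAAGCGCtgcaag
LMX1B: caggtcTGGTTTCAGAACCAAAGAgcaaag
SIX4: agcaacTGGTTCAAGAACCGCCGGcagcgc

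All of these stretches are exonic and coding. In LMX1B the stretch lies at chr9:126693572-126693601 on the plus strand, in exon 5 of 8. In ISL2 it lies at chr15:76340470-76340499 on the plus strand, in exon 4 of 6. In HESX1, on the minus strand of chromosome 3, the stretch is split by an intron and runs over exons 6 and 7 of 7 (57198269 to 57198393). The letters searched were not found in BARHL2, PAX2, PAX8, SATB1, ZEB1, ZEB2, ZHX1, ZHX2 or HIPK1.

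The labels were first checked on RBMX itself, which stood between 87.4 and 148 FPKM (sequenced fragments relative to transcript length and library size) in the 6 control libraries and between 1072 and 2073 FPKM in the 6 RBMX libraries. On the log2(FPKM + 1) scale, used for every difference given here, RBMX was higher by 3.71 (SE 0.186, adjusted p = 0.00269, limma) in total and 3.25 (SE 0.243, adjusted p = 0.0415, limma) in polysomal RNA. VIM, KRT8, KRT18, NEFL, NEFM and INA, the markers fixed for the HEK293 line, were detected in all 12 libraries, with VIM at 217 to 577 FPKM, and mature kidney markers summed to 0.0528 to 0.177 FPKM, with UMOD listed at 0 throughout. The summed level of the HEK293 markers was lowest in both libraries of control culture 3. It was 435 FPKM in total RNA and 401 FPKM in polysomal RNA there, against 841 to 980 FPKM in the RBMX libraries. Other control libraries reached 901 FPKM in total and 952 FPKM in polysomal RNA. The 10 markers of blood, endothelial, stromal and liver cells stayed at or under 0.226 FPKM except COL1A1 (3.14 to 8.61 FPKM) and LUM (0.394 to 1.23 FPKM). Their sum was 4.13 to 5.99 FPKM in control total, 6.87 to 7.73 in RBMX total, 4.55 to 6.99 in control polysomal and 8.0 to 9.73 in RBMX polysomal RNA, so it moved with the vector, and its part in the differences between vectors was not tested. How many fragments each library held is unknown. The FPKM of all symbols summed to between 817528 (control polysomal replicate 1) and 1903320 (control total replicate 3). Each polysomal library had a lower sum than the total library of its vector and number. Rescaled fits are among the alternatives given below. The 44 genes together summed to 300.9 to 329.4 FPKM in control total, 299.8 to 323.0 in control polysomal, 310.2 to 318.3 in RBMX total and 304.9 to 328.2 in RBMX polysomal RNA.

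Of the 44 genes, 37 were expressed, that is, at 1 FPKM or more in all 12 libraries. HESX1, a PRD class repressor of forebrain and pituitary development, reached 1 FPKM in a single library and was the only low gene, with a mean of 0.789 FPKM. The remaining 6 fell below the mean of 0.5 FPKM needed for testing and none was listed at 0 in all libraries. They were CUX2 (mean 0.410 FPKM), DLX3 (0.355), OTX2 (0.145), EVX1 (0.112), LMX1A (0.0657) and PAX8 (0.0195). HESX1 and CUX2 were thus the genes just inside and just outside the filter, which left 38 members for testing among 14676 genes. Raising the limit from 1 to 2 FPKM in all libraries left 32 expressed genes, and lowering it to 0.5 FPKM left 37.

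**Figure D1:**
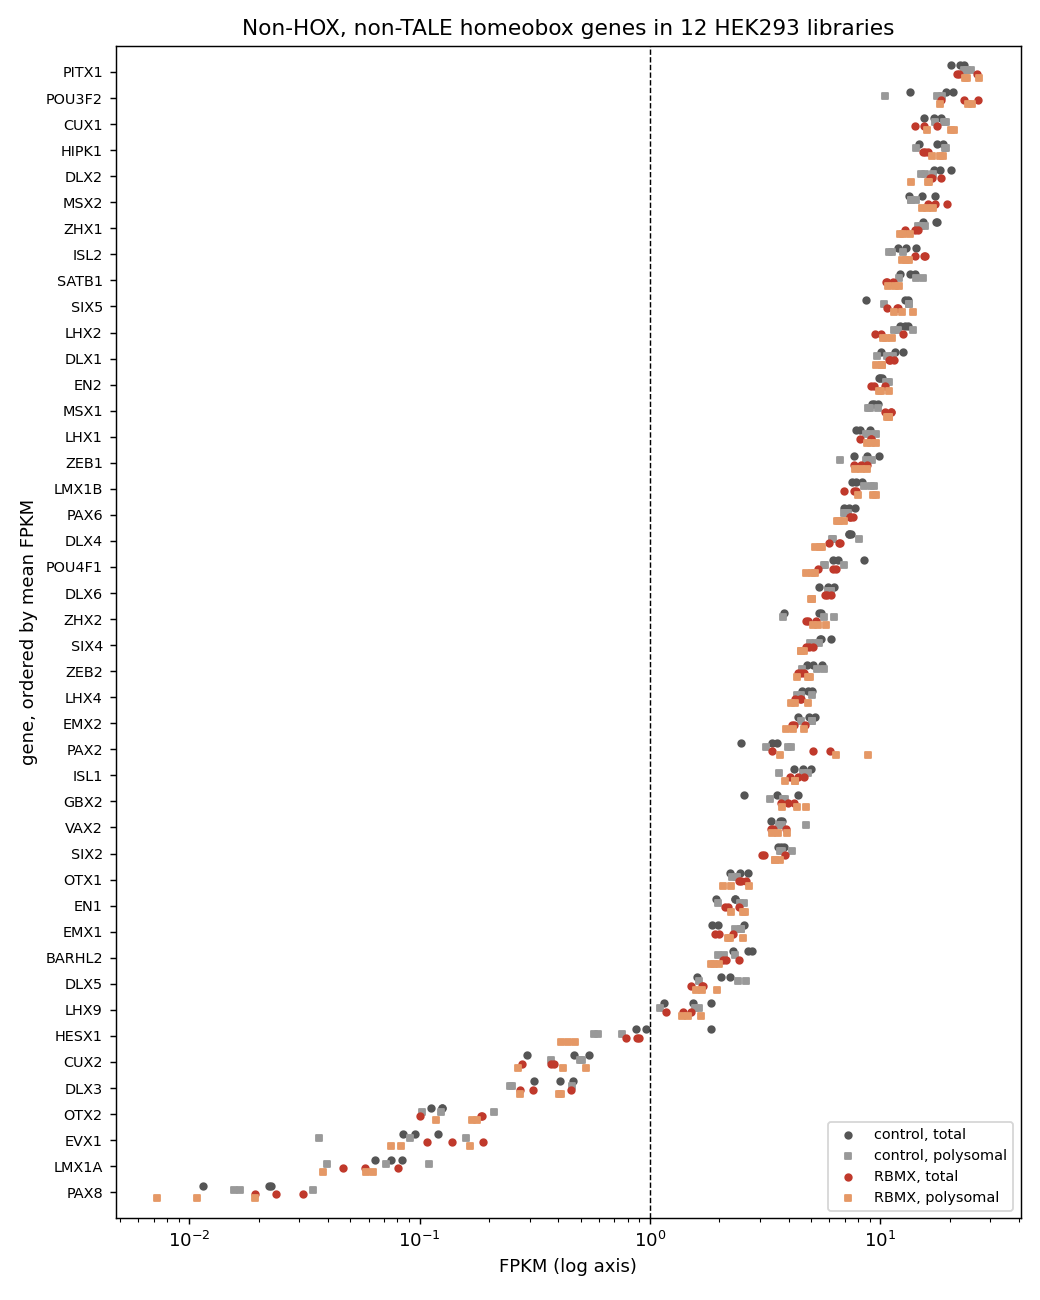
FPKM (log axis) of each of the 44 genes, ordered by the mean over 12 libraries, with 3 points for each combination of vector and fraction and a dashed line at 1 FPKM. From LHX9 upward all points lie above the line, and the points run from 0.00722 FPKM for PAX8 to 26.9 FPKM for PITX1.

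The most abundant member was PITX1, a PRD class factor known for hindlimb and pituitary development, at a mean of 23.4 FPKM. In replicates 1 to 3, PITX1 stood at 22.2, 23.1 and 20.3 FPKM in control total, 23.8, 23.1 and 24.8 in control polysomal, 22.1, 21.5 and 26.4 in RBMX total and 23.4, 26.9 and 23.8 in RBMX polysomal RNA. POU3F2, a POU class factor of neural development also known as BRN2, followed with a mean of 19.6 FPKM. In replicates 1 to 3, POU3F2 stood at 19.3, 20.6 and 13.5 FPKM in control total, 18.6, 17.7 and 10.4 in control polysomal, 23.0, 26.5 and 18.4 in RBMX total and 24.0, 25.1 and 18.1 in RBMX polysomal RNA. The ranges of PITX1 and POU3F2 over the 12 libraries overlapped, so their order was not separated by the spread.

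CUX1, a cut-repeat repressor, had a mean of 17.6 FPKM. In replicates 1 to 3, CUX1 stood at 17.1, 18.3 and 15.5 FPKM in control total, 19.2, 18.9 and 17.4 in control polysomal, 15.5, 14.1 and 17.6 in RBMX total and 15.9, 20.4 and 20.8 in RBMX polysomal RNA. HIPK1, the kinase, had a mean of 17.1 FPKM. In replicates 1 to 3, HIPK1 stood at 17.5, 18.7 and 14.8 FPKM in control total, 19.3, 19.2 and 14.3 in control polysomal, 15.6, 15.3 and 16.1 in RBMX total and 16.8, 18.7 and 18.2 in RBMX polysomal RNA. The ranges of CUX1 and HIPK1 overlapped too. DLX2, a distal-less factor of forebrain and branchial arch development, had a mean of 16.7 FPKM. In replicates 1 to 3, DLX2 stood at 20.3, 18.1 and 17.0 FPKM in control total, 17.0, 15.6 and 15.0 in control polysomal, 16.4, 16.8 and 18.4 in RBMX total and 13.6, 16.4 and 16.2 in RBMX polysomal RNA. Its highest value was in control total replicate 1 and its lowest in RBMX polysomal replicate 1.

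The other members with a mean over 10 FPKM were MSX2 (15.7), ZHX1 (14.6), ISL2 (13.1), SATB1 (12.4), SIX5 (12.0), LHX2 (11.6), DLX1 (10.8), EN2 (10.2) and MSX1 (10.1). Between 5 and 10 FPKM stood LHX1 (8.86), ZEB1 (8.36), LMX1B (8.34), PAX6 (7.14), DLX4 (6.50), POU4F1 (6.06), DLX6 (5.73), ZHX2 (5.14) and SIX4 (5.10). Below them came ZEB2 (4.91), LHX4 (4.58), EMX2 (4.57), PAX2 (4.51), ISL1 (4.37), GBX2 (3.85), VAX2 (3.71), SIX2 (3.62), OTX1 (2.41), EN1 (2.30), EMX1 (2.24), BARHL2 (2.21), DLX5 (1.88) and LHX9 (1.45). Neighbours in this order overlapped in their ranges over the 12 libraries except SIX2 above OTX1 and, below the filter, DLX3 above OTX2 and LMX1A above PAX8. Exons of other genes cover 56.6% of the exonic bases of VAX2 on the same strand. On the other strand they cover 59.3% in SIX5, 30.8% in LHX4, 27.7% in POU4F1 and 26.1% in PAX6. How far such overlaps add to these levels was not tested.

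Paralogs were often unequal. Of the LMX1 pair, LMX1B had a mean of 8.34 FPKM and LMX1A 0.0657. CUX1 stood at 17.6 FPKM against 0.410 for CUX2, and OTX1 at 2.41 against 0.145 for OTX2. PAX2, known from early nephron development, was expressed at 4.51 FPKM, whereas PAX8 was listed at 0.0343 FPKM or less in all 12 libraries. EN2 exceeded EN1 (10.2 against 2.30 FPKM) and ISL2 exceeded ISL1 (13.1 against 4.37 FPKM). The 6 DLX genes form 3 neighbouring pairs in the genome: DLX1 (chr2:172084740-172089677) with DLX2 (chr2:172099439-172102900), DLX4 with DLX3 on chromosome 17, and DLX6 with DLX5 on chromosome 7. DLX1 and DLX2 were at 10.8 and 16.7 FPKM and DLX6 and DLX5 at 5.73 and 1.88 FPKM, while DLX4 was at 6.50 and its neighbour DLX3 at 0.355 FPKM.

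RBMX cells were then compared with control cells in total RNA, to ask whether the extra RBMX changed the level of these mRNAs. MSX1 was the only member with all RBMX libraries above all control libraries, and SATB1, ZHX1, SIX4, DLX4, ZEB2 and LHX4 had all RBMX libraries below, but none of the 38 passed the threshold (limma, Benjamini-Hochberg adjusted p up to 0.05), against 24 of 14676 genes (0.164%). Without adjustment 1 member was higher and 4 were lower at p under 0.05, together 13.2% of the members against 18.8% of all genes. Non-overlapping groups were found for 6 members in the lower direction (15.8%, against 15.4% of all genes) and 1 in the higher direction (2.63%, against 11.9%). In all, 24 of the 38 had a lower mean in RBMX cells, with a median difference of -0.07 on the log2 scale where the median of all genes was 0. That median was -0.02 without RBMX replicate 2, -0.04 without control replicate 2 and -0.11 without control replicate 3. The 95% intervals of the 38 differences all lay between -0.65 and 0.99. Without control replicate 3, whose culture stood apart in its line markers, 0 members were called in either fraction. In bulk RNA, a change in fewer cells and a smaller change in all cells cannot be told apart.

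MSX1, a repressor of craniofacial and tooth development, stood at 9.22, 9.79 and 9.38 FPKM in control total, 8.87, 8.99 and 9.77 in control polysomal, 10.4, 11.1 and 11.2 in RBMX total and 10.9, 10.7 and 10.9 in RBMX polysomal RNA. Its RBMX values were all above its control values, by 0.19 on average (SE 0.057, adjusted p = 0.200). SATB1, a CUT class organiser of chromatin loops known from T cells, stood at 14.1, 13.4 and 12.1 FPKM in control total, 15.3, 14.3 and 12.0 in control polysomal, 10.7, 10.6 and 11.4 in RBMX total and 10.8, 11.5 and 12.1 in RBMX polysomal RNA. In total RNA the groups did not overlap and the difference was -0.25 (SE 0.073, adjusted p = 0.189). In polysomal RNA control replicate 3 fell among the RBMX values.

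ZHX1, a repressor with zinc fingers and several homeodomains, stood at 15.4, 17.5 and 17.6 FPKM in control total, 15.7, 15.0 and 14.5 in control polysomal, 12.8, 14.5 and 14.1 in RBMX total and 12.6, 12.2 and 13.4 in RBMX polysomal RNA. It was lower in the RBMX cells in both fractions, without overlap, by -0.27 in total RNA (SE 0.081, adjusted p = 0.198) and by -0.23 in polysomal RNA (SE 0.070, adjusted p = 0.400). SIX4, a SINE class factor of muscle and sensory organ development, stood at 5.52, 5.50 and 6.09 FPKM in control total, 5.40, 5.19 and 4.96 in control polysomal, 4.91, 4.78 and 5.09 in RBMX total and 4.53, 4.55 and 4.69 in RBMX polysomal RNA. Its difference in total RNA was -0.18 (SE 0.062, adjusted p = 0.233). DLX4, a distal-less factor known from placenta, stood at 7.31, 7.43 and 7.32 FPKM in control total, 6.20, 6.16 and 8.09 in control polysomal, 6.60, 6.71 and 5.97 in RBMX total and 5.57, 5.46 and 5.21 in RBMX polysomal RNA. Its difference in total RNA was -0.17 (SE 0.063, adjusted p = 0.240), and in polysomal RNA it was -0.28 (SE 0.114, adjusted p = 0.425), with the groups apart in both.

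**Figure D2:**
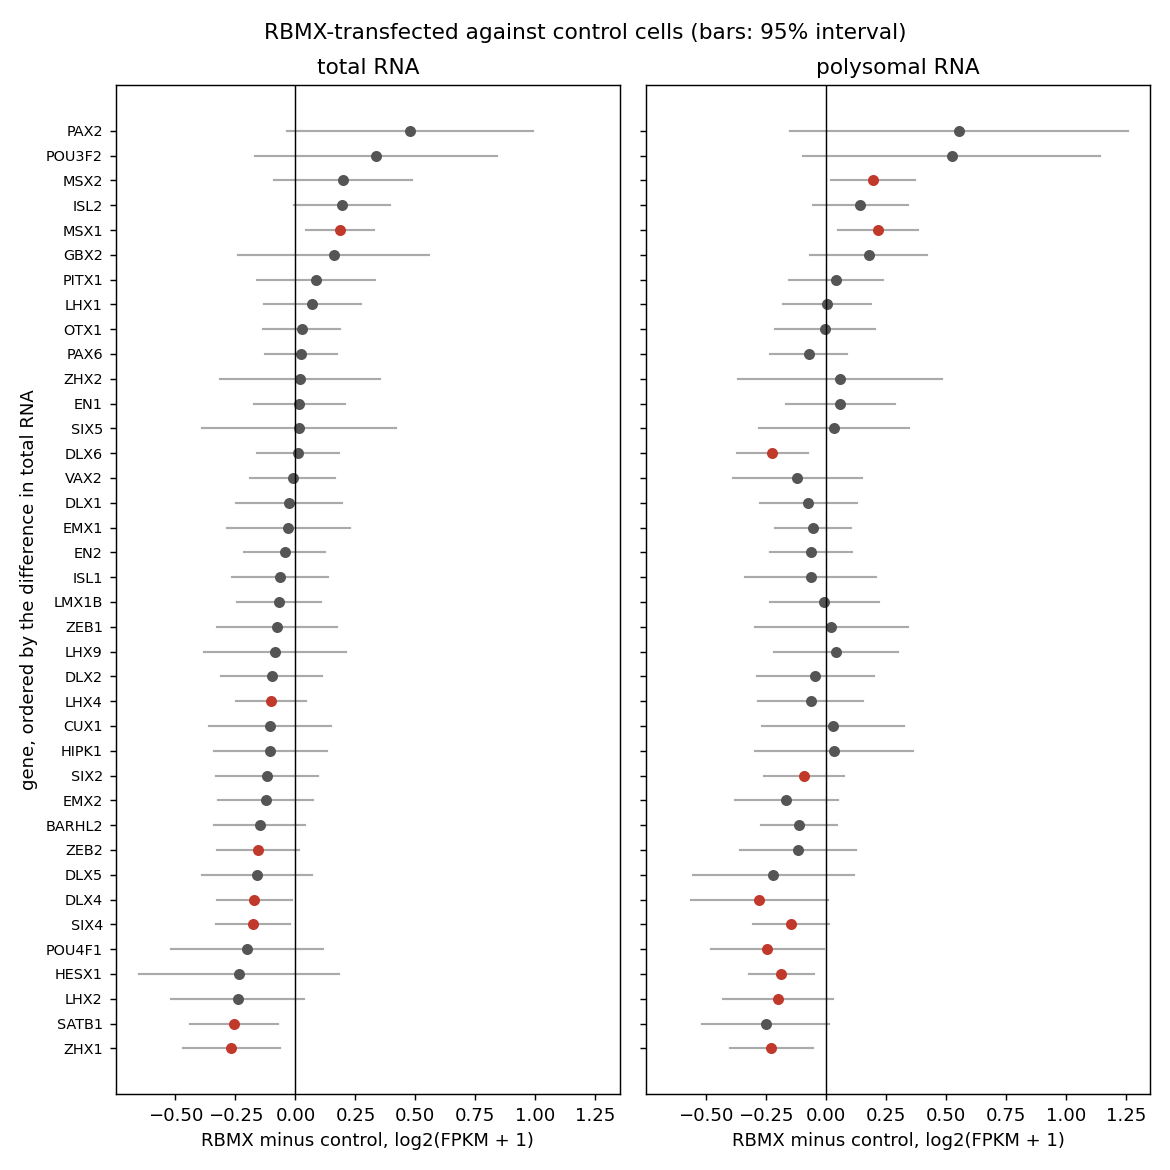
Difference between RBMX and control cells (3 libraries each) for the 38 tested genes in total and polysomal RNA, as log2(FPKM + 1) with 95% intervals, and red points where the groups did not overlap. Most intervals include 0, and PAX2 and POU3F2 have the largest means.

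The same comparison in polysomal RNA asked whether the share of each mRNA in the polysomal RNA changed. As FPKM is relative to library size, a change in the whole amount of RNA on polysomes would not be seen. MSX1 and MSX2 had all RBMX libraries above the control libraries, and DLX6, HESX1, ZHX1, POU4F1, DLX4, SIX4, LHX2 and SIX2 had them below. Again none of the 38 members passed the threshold, against 7 of all genes (0.0477%). At an unadjusted p under 0.05, 2 members were higher and 4 lower, 15.8% of the members against 11.7% of all genes. The 8 non-overlapping members in the lower direction were 21.1% of the 38, against 12.5% of all genes, and the 2 in the higher direction were 5.26%, against 10.0%. The total and polysomal libraries may come from the same cultures, so the fractions cannot be taken as independent of each other. The 95% intervals lay between -0.56 and 1.26.

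MSX2, the paralog of MSX1 and known from skull and limb development, stood at 13.3, 17.2 and 15.2 FPKM in control total, 13.6, 14.3 and 13.6 in control polysomal, 16.2, 19.4 and 17.2 in RBMX total and 15.9, 16.9 and 15.1 in RBMX polysomal RNA. The polysomal groups were apart, by 0.20 (SE 0.070, adjusted p = 0.407), whereas the total groups overlapped. DLX6, a distal-less factor of the jaw and limb, stood at 5.43, 6.28 and 5.96 FPKM in control total, 6.13, 6.08 and 5.93 in control polysomal, 5.76, 6.14 and 5.90 in RBMX total and 4.99, 5.07 and 5.05 in RBMX polysomal RNA. Its polysomal values were lower in the RBMX cells by -0.22 (SE 0.059, adjusted p = 0.400), and in total RNA the groups overlapped. HESX1 in polysomal RNA differed by -0.18 (SE 0.054, adjusted p = 0.400). MSX1 differed there by 0.22 (SE 0.067, adjusted p = 0.400). POU4F1, also known as BRN3A and a factor of sensory neurons, stood at 6.58, 6.24 and 8.50 FPKM in control total, 5.75, 5.68 and 6.96 in control polysomal, 6.22, 6.43 and 5.39 in RBMX total and 5.03, 5.20 and 4.77 in RBMX polysomal RNA. Its polysomal difference was -0.24 (SE 0.094, adjusted p = 0.421), and 27.7% of its exonic bases are overlapped by a gene on the other strand, which reads without strand cannot tell apart.

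On the log2(FPKM + 1) scale, PAX2 and POU3F2 had the largest mean differences between the vectors. These 2 genes were singled out after their values were seen. That scale understates changes of low genes. In mean FPKM, HESX1 changed by -30.2% in total and -31.0% in polysomal RNA, POU3F2 by 27.1% and 43.8%, and PAX2 by 53.9% and 67.3%. PAX2 stood at 3.40, 3.55 and 2.49 FPKM in control total, 3.96, 4.12 and 3.20 in control polysomal, 6.05, 5.11 and 3.38 in RBMX total and 6.41, 8.80 and 3.66 in RBMX polysomal RNA. It was higher in the RBMX cells by 0.48 in total RNA (SE 0.206, adjusted p = 0.288) and by 0.56 in polysomal RNA (SE 0.282, adjusted p = 0.468). For POU3F2, whose values are given above, the differences were 0.34 (adjusted p = 0.418) and 0.52 (SE 0.248, adjusted p = 0.449). Single libraries moved these values. PAX2 in polysomal RNA differed by 0.31 without RBMX replicate 2 and 0.85 without RBMX replicate 3. POU3F2 differed by 0.16 in total and 0.28 in polysomal RNA without control replicate 3, and by 0.22 in total RNA without RBMX replicate 2. In both genes RBMX replicate 3 fell among the control values of its fraction, and replicate 3 was the lowest library of all 4 groups. That order was shared by ZEB1, making 3 of the 38 members (7.89%), and by 7.68% of all genes tested.

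**Figure D3:**
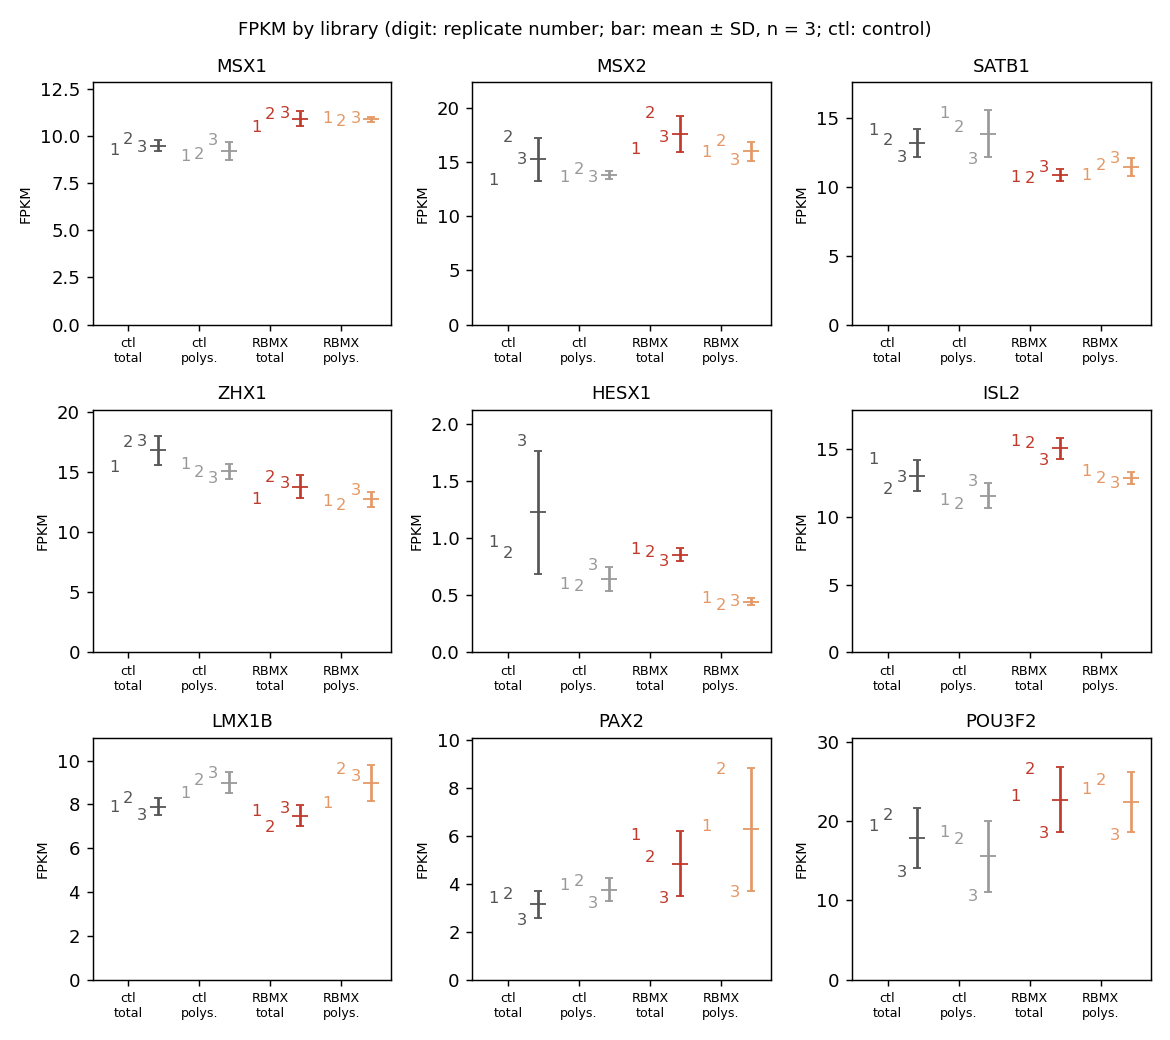
FPKM of 9 members in each library; digits are replicate numbers and bars are the mean ± SD of the 3 libraries of a group. MSX1 is higher in RBMX cells in both fractions, HESX1 is lower in polysomal RNA, and PAX2 and POU3F2 have replicate 3 lowest in each group.

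Polysomal RNA was next set against total RNA over all 6 cultures, to ask which of these mRNAs were over- or under-represented on polysomes. HESX1 and ISL2 were lower and LMX1B was higher in polysomal RNA, each in 6 of 6 cultures, and these 3 of the 38 members (7.89%) passed the threshold, against 1310 of all genes (8.93%). Because total RNA is described as a pool of the gradient's own fractions, libraries of one vector and number were also taken as pairs. The paired fits, the counts over 6 cultures and the sign-flip test rest on that reading. The paired fit called 8 members, the same 3 with BARHL2, DLX1, DLX2 and POU4F1 lower and EN2 higher (21.1%, against 23.9% of all genes). In both fits the members were called at a share near that of all genes. In all 6 cultures 9 members were lower (23.7%, against 16.5% of all genes), namely BARHL2, DLX1, DLX2, HESX1, ISL1, ISL2, PAX6, POU4F1 and SIX4, and 4 were higher (10.5%, against 16.0%), namely CUX1, EN2, LMX1B and PAX2.

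HESX1 stood at 0.957, 0.868 and 1.84 FPKM in control total, 0.594, 0.571 and 0.756 in control polysomal, 0.895, 0.875 and 0.790 in RBMX total and 0.473, 0.411 and 0.440 in RBMX polysomal RNA. The polysomal values were below the total values of the same vector without overlap, and control total replicate 3 was the highest of the 12. The difference was -0.39 (SE 0.091, adjusted p = 0.0286, paired 0.0117), and at this low level the log2(FPKM + 1) scale understates the ratio. The exact sign-flip test over the 6 cultures gave p = 0.031, unadjusted, the smallest it can give. Every gene lower or higher in all 6 cultures (16.5% and 16.0% of all genes) reaches that value. ISL2, a LIM factor of motor neurons, stood at 14.2, 12.0 and 12.9 FPKM in control total, 11.2, 10.9 and 12.6 in control polysomal, 15.6, 15.4 and 14.2 in RBMX total and 13.4, 12.9 and 12.4 in RBMX polysomal RNA. It was lower on polysomes by -0.18 (SE 0.051, adjusted p = 0.0485, paired 0.0244), although 17.5% of its exonic bases are overlapped by a gene on the other strand. LMX1B, a LIM factor of the dorsal limb and of the podocyte, stood at 7.87, 8.29 and 7.51 FPKM in control total, 8.50, 9.07 and 9.42 in control polysomal, 7.67, 6.96 and 7.84 in RBMX total and 8.03, 9.61 and 9.29 in RBMX polysomal RNA. It was higher on polysomes by 0.20 (SE 0.051, adjusted p = 0.0375, paired 0.0373), and neither HESX1 nor LMX1B overlaps an exon of another annotated gene. These calls were close to the threshold. With 1 library left out at a time, HESX1 missed it in 7 of 12 fits (adjusted p 0.0508 to 0.0736), ISL2 in 10 (0.0669 to 0.122) and LMX1B in 9 (0.0563 to 0.0966). ISL2 also missed it in 6 other alternatives: median-ratio rescaling, quantile normalization, no trend, a mean FPKM of at least 0.1, no filter and small RNA genes left out (0.0505 to 0.113). LMX1B missed it with no filter (0.0580). Without either library of control culture 3, 7 of the 38 members were called, against 3288 of 14648 genes. They were BARHL2, DLX4, HESX1, HIPK1, ISL2, LMX1B and POU4F1.

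Of the members called when cultures were paired, POU4F1 differed by -0.20 (paired SE 0.032, adjusted p = 0.0117, unpaired 0.122) and DLX2 by -0.18 (paired SE 0.035, adjusted p = 0.0185, unpaired 0.0906). DLX1, the neighbour of DLX2 and like it a factor of forebrain interneurons, stood at 11.6, 10.1 and 12.6 FPKM in control total, 10.7, 9.70 and 11.3 in control polysomal, 11.5, 11.0 and 11.0 in RBMX total and 10.2, 9.57 and 10.2 in RBMX polysomal RNA. It differed by -0.12 (paired adjusted p = 0.0256, unpaired 0.188). BARHL2, a factor of neural subtype choice, stood at 2.76, 2.29 and 2.66 FPKM in control total, 2.10, 1.98 and 2.34 in control polysomal, 2.14, 2.09 and 2.43 in RBMX total and 1.89, 2.00 and 1.83 in RBMX polysomal RNA. It differed by -0.16 (paired adjusted p = 0.0319, unpaired 0.0565). EN2, an engrailed factor of the midbrain and hindbrain, stood at 9.98, 10.2 and 9.86 FPKM in control total, 10.9, 10.7 and 10.6 in control polysomal, 9.15, 9.40 and 10.5 in RBMX total and 9.84, 10.0 and 10.9 in RBMX polysomal RNA. It differed by 0.09 (paired adjusted p = 0.0423, unpaired 0.206). These shifts were small beside the levels, at most 0.20 on the log2 scale.

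**Figure D4:**
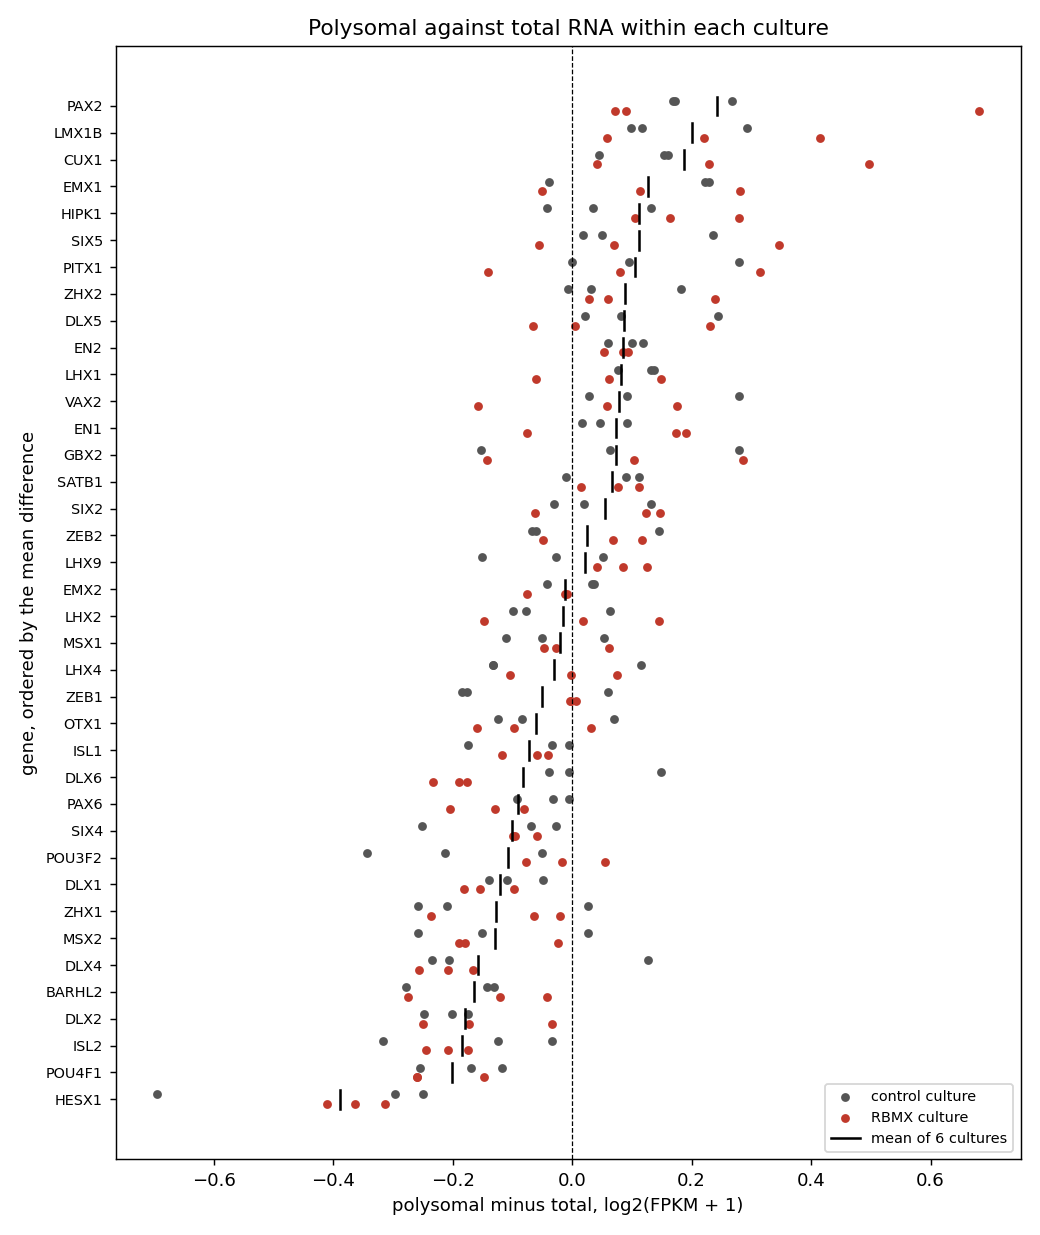
Polysomal minus total value of log2(FPKM + 1) in each of the 6 cultures (3 control, 3 RBMX) for the 38 tested genes, with the mean as a black bar. HESX1 lies lowest, at a mean of -0.39, and all 6 of its cultures lie below 0, while LMX1B lies above 0 in all 6.

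Within the control cells alone no member passed the threshold, against 12 genes (0.0818%), and none had an unadjusted p under 0.05, against 8.04% of all genes. LMX1B, PITX1 and EN2 were higher and HESX1, DLX2 and SIX4 lower in polysomal RNA without overlap, which made 7.89% of the members in each direction, against 7.63% and 7.31% of all genes. HESX1 differed there by -0.41 (SE 0.174, adjusted p = 0.633), LMX1B by 0.17 (SE 0.071, adjusted p = 0.633), DLX2 by -0.21 (SE 0.089, adjusted p = 0.633), PITX1 by 0.12 (SE 0.070, adjusted p = 0.714) and EN2 by 0.09 (SE 0.054, adjusted p = 0.726). Without total replicate 3, HESX1 differed by -0.22 and PITX1 by 0.07.

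Within the RBMX cells HESX1 was the single member called, lower on polysomes by -0.36 (SE 0.037, adjusted p = 0.0306), against 196 genes in all (1.34%). It was not called with the cultures paired (adjusted p = 0.115), nor without any 1 of the 6 libraries (0.0670 to 0.163). Lower values without overlap were found for 10 members (26.3%, against 16.2% of all genes), namely HESX1, DLX6, ISL2, DLX4, POU4F1, DLX1, PAX6, BARHL2, SIX4 and DLX2, and higher ones for HIPK1 and LMX1B (5.26%, against 14.6%). DLX6 differed by -0.20 (SE 0.046, adjusted p = 0.116), ISL2 by -0.21 (SE 0.056, adjusted p = 0.139), DLX4 by -0.21 (SE 0.061, adjusted p = 0.150) and HIPK1 by 0.18 (SE 0.056, adjusted p = 0.157). The control and RBMX comparisons share no library, but a call in the RBMX cells and none in the control cells does not show a difference between them.

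That difference was tested directly, as the RBMX effect in polysomal RNA minus that in total RNA over the 12 libraries. No member passed the threshold, against 3 genes (0.0204%), and 1 of the 38 had an unadjusted p under 0.05, against 0.600% of all genes. This was DLX6, at -0.23 (SE 0.077, unadjusted p = 0.0129 and adjusted p = 1.000 in limma). Its polysomal value exceeded the total value in control culture 1, by 0.15, and lay below it in the other 5 cultures, by -0.0045 to -0.23. For HESX1, ISL2 and LMX1B the adjusted p was also 1.000, and the 95% intervals of all members lay between -0.75 and 0.94.

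The study placed 12 of the 44 genes on its lists of homeotic genes, of which 10 could be tested, and EVX1 and OTX2 were below the filter. With all libraries and no pairs, none of the 10 was called between the vectors in either fraction. Polysomal against total RNA over both vectors called HESX1 and ISL2 (20% of the 10, against 8.93% of all genes). Within RBMX cells it called HESX1 (10%, against 1.34%). No other of the 10 passed the threshold in these fits. BARHL2, DLX1 and POU4F1 passed too over both vectors when cultures were paired, where 23.9% of all genes passed. Without pairs, BARHL2 passed over both vectors without control total replicate 2, BARHL2 and POU4F1 without control polysomal replicate 3, and both with HIPK1 without control culture 3. In these fits 1130 of 14670, 2648 of 14669 and 3288 of 14648 genes passed. GBX2, a factor of the hindbrain boundary, stood at 3.58, 4.40 and 2.56 FPKM in control total, 3.78, 3.86 and 3.32 in control polysomal, 3.97, 3.71 and 4.24 in RBMX total and 4.34, 4.75 and 3.75 in RBMX polysomal RNA. DLX5, a factor of bone and jaw development, stood at 2.04, 2.22 and 1.59 FPKM in control total, 2.60, 2.40 and 1.63 in control polysomal, 1.71, 1.51 and 1.68 in RBMX total and 1.59, 1.95 and 1.69 in RBMX polysomal RNA. In both genes the ranges of the 4 groups overlapped. MSX2, CUX1 and HIPK1, the other members on those lists, are described above.

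Lists of related genes were read in the same fits. Of 112 other homeobox genes, HOX and TALE genes among them, 61 could be tested. None was called between the vectors in either fraction, where 10 of the 61 had an unadjusted p under 0.05 in total RNA (16.4%, against 18.8% of all genes) and 4 in polysomal RNA (6.56%, against 11.7%). Of 25 cofactors of LIM, SINE class, ZEB and Groucho-dependent factors, 22 were tested, none was called between the vectors, with 3 in each fraction at an unadjusted p under 0.05 (13.6%, against the same 18.8% and 11.7%). Over both vectors CTBP1, a corepressor recruited by ZEB factors, was higher in polysomal than in total RNA by 0.21 (SE 0.049, adjusted p = 0.0267). It was the only cofactor called there, 4.55% of the 22, against 8.93% of all genes. The 22 Polycomb subunits, known as repressors of homeobox loci, were all tested, and none was called between the vectors, with 6 in total (27.3%, against 18.8%) and 3 in polysomal RNA (13.6%, against 11.7%) at an unadjusted p under 0.05. The Polycomb ring finger genes PCGF1 (-0.41, SE 0.071, adjusted p = 0.0118), PCGF2 (-0.22, SE 0.061, adjusted p = 0.0473) and PCGF5 (-0.38, SE 0.084, adjusted p = 0.0235) were lower in polysomal RNA, 13.6% of the 22, against 8.93% of all genes. PCGF1 was also lower within the RBMX cells, by -0.54 (SE 0.041, adjusted p = 0.0140), with means of 24.2 ± 0.337 FPKM in total and 16.3 ± 0.388 FPKM in polysomal RNA (SD, n = 3).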

How the data were processed

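Total and polysomal RNA of HEK293 cells was sequenced in 3 replicates per vector, 12 libraries in all. The authors deposited 1 FPKM value per gene symbol and library for 25268 symbols. Per the labels the values were made on hg19 with CASAVA 1.8, TopHat2 2.0.13, Cuffnorm and Cufflinks 2.2.1, while the methods of the study describe alignment to hg38 and a comparison of counts with DESeq2. The annotation and the strandedness behind the FPKM values are not given in the sources used here, and 0 columns were left unmatched. No count model was applied, since FPKM values are not counts.

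Values were analysed as log2(FPKM + 1) with R 4.3.3 and limma 3.58.1 (lmFit and eBayes with a trend) over the 14676 genes whose mean FPKM reached 0.5, and p-values were adjusted over all of them (Benjamini-Hochberg, called at 0.05 or less). Each comparison of 2 groups used its own 6 libraries, and polysomal against total RNA over both vectors and the difference of the RBMX effects used all 12. Exact permutation of 3 against 3 allows no two-sided p under 0.1. Replicates of the same group correlated with a Spearman rho of 0.924 to 0.953 across genes tested, and the study describes them as biological triplicates. The fits were also run on simulated data, with libraries drawn independently and changes larger than the member differences given here. That run does not show how the fits perform on differences of this size or on paired libraries.

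The study's methods take total and polysomal RNA from the same gradient, so libraries of one vector and number were taken as pairs, although the labels also mention a pair of dishes and the pairing is uncertain. Across genes, which are not independent replicates, their deviations from the group means correlated at 0.0758, 0.0991 and 0.311 (control replicates 1 to 3) and 0.00177, 0.0219 and 0.0893 (RBMX replicates 1 to 3). When small RNA genes were set aside the values were 0.425, 0.610 and 0.748, and 0.173, 0.0309 and 0.634.

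The members and lists were chosen with earlier results of these data known. Values in every library are given for the 8 most abundant members, every member past the threshold, up to 5 members per comparison with the smallest unadjusted p among those whose groups do not overlap, and the tested members on the study's homeotic lists. Genes of the other lists are named only where past the threshold. A gene result under that rule and some sequences are not reported here. PAX2, POU3F2 as a difference between vectors, and members named with counts beyond that rule were picked with their values known. Positions come from GENCODE release 29 on GRCh38, not the build of the files, and were matched by symbol for all 44 genes. The transcript with the longest coding sequence of each member was searched for 100-base words shared with other genes, in the sense orientation. There ZHX1 alone shared words, with ZHX1-C8orf76 (0.333% of its words). Other exons were not searched, and other genes on the same strand overlap 56.6% of the exonic bases of VAX2, 2.7% of ZHX1 and 1.57% of SATB1.

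Alternatives were a pseudocount of 0.1, no trend in eBayes, a replicate block, quantile normalization or median-ratio rescaling, all 12 libraries fitted together, every single library left out, and filters at a mean FPKM of 0.1, of 1 or none. Fits without small RNA genes and without control culture 3 were added after seeing the data.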

Additional observations from a re-analysis of the deposited data

How the results depend on the processing

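No member changed direction among the values followed, and 0 members were called between the vectors, within control cells or for the difference of effects under any alternative. The counts over all genes moved more. Between the vectors in total RNA 62 genes were called with a mean FPKM of at least 0.1, 77 with no filter, 13 with the replicate block and 60 where all 12 libraries were fitted together, and 19 to 177 with 1 library left out, the highest without RBMX total replicate 3. In polysomal RNA these were 14, 31, 3 and 22, with 2 when small RNA genes were left out and 9 to 126 with 1 library left out, the highest without RBMX polysomal replicate 3. Between vectors the number is only a number, so this block does not pair samples. Polysomal against total RNA in control cells gave 6 genes with the cultures paired, 41 with all 12 libraries, 6 without small RNA genes and 12 to 32 with 1 library left out. In RBMX cells it gave 61 genes with no filter, 70 with quantile normalization, 4 with the cultures paired, 21 with all 12 libraries, 417 without small RNA genes and 10 to 40 with 1 library left out. There 0 members were called with a mean FPKM of at least 1, which removes HESX1 from the test, with the cultures paired, with all 12 libraries, and in each fit without 1 library (0 to 0). Over both vectors 1 member was called with no filter, 8 of 3512 genes with the cultures paired, 7 of 3288 without control culture 3, and 0 to 6 members of 432 to 2648 genes with 1 library left out, the highest without control polysomal replicate 3. The difference of effects gave 5 genes with the cultures paired, 0 without small RNA genes, 7 without control culture 3 and 3 to 7 with 1 library left out. The causes were not tested. Over all alternatives the adjusted p of HESX1 ranged from 0.000971 to 0.0736, of ISL2 from 0.0145 to 0.122 and of LMX1B from 0.0300 to 0.0966 over both vectors, and of HESX1 from 0.0230 to 0.218 in RBMX cells. Quantile normalization put the median of all genes in RBMX cells at 0.04 on the log2 scale, against -0.0011, and left 23 members higher and 15 lower there, against 20 and 18. Depth was not known, and how small a difference 3 libraries per group could detect was not tested. Differences within the spread of 3 libraries may have been missed.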

Other observations

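SIX5, a SINE class factor, and ZHX2, a zinc-finger homeobox repressor, were lowest in the libraries of control culture 3, and were singled out after their values were seen. SIX5 stood at 8.68 FPKM in total and 10.4 FPKM in polysomal RNA of that culture, against 12.8 to 13.3 FPKM in the other 4 control libraries, and 59.3% of its exonic bases are overlapped by genes on the other strand. ZHX2 stood at 3.82 and 3.79 FPKM there, against 5.43 to 6.29 FPKM in the other 4. LHX1 and LHX2 had replicate 3 highest in all 4 groups, as had 11.1% of all genes tested, and MSX2 had replicate 2 highest, as had 0.831%.

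Across the 38 tested members, the difference between polysomal and total RNA had a Spearman correlation of 0.27 with the length of the transcript with the longest coding sequence and of 0.36 with its GC content. Across 12498 genes with such a transcript these were 0.31 and 0.34. The points share the same 12 libraries, and the values are a description of genes, not of replicates.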
